A study of Mus musculus with 8 samples.

Results

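The 9 genes described here make, move, break down or sense γ-aminobutyric acid (GABA) in pancreatic islets: *Gad1* and *Gad2* for synthesis, *Slc32a1* for vesicle loading, *Abat* and *Aldh5a1* for breakdown, *Gabbr1* and *Gabbr2* for the GABA-B receptor, and *Kctd12* and *Kctd16* for its auxiliary subunits. They were listed by name, with earlier results of these data known, and every array probe whose gene symbol was one of these names was taken. That gave 21 of 56605 probes on the array, and 9 of 26894 gene symbols. Islets came from male βUCP2Tg mice, in which a rat insulin promoter drives mouse *Ucp2* cDNA in β-cells, and from WT littermates on the same backcrossed C57BL/6J background. Mice were 8 to 12 weeks old when islets were taken. Islets of both groups were kept for 8 h in RPMI medium with 200 mg/dL glucose before RNA was extracted, and the labels give no difference between the groups besides the transgene. There were 4 samples of each group, each on one single-colour Agilent array, and the question was which transcripts differ when β-cells carry excess UCP2, a mitochondrial carrier protein. The sources do not say whether the samples were separate mice or pools, so p-values measure the spread between these samples.

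β-cells hold much GABA, which glutamate decarboxylases make from glutamate. GABA can be released as a local signal or enter the GABA shunt, in which ABAT turns it into succinic semialdehyde and ALDH5A1 turns that into succinate for the mitochondrial citric acid cycle. The GABA-B receptor is an obligate pair: GABBR1 binds GABA, GABBR2 brings the pair to the cell surface and couples it to inhibitory G proteins, and KCTD proteins attach to GABBR2 and shape the time course of the response.

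Each gene was read by 1 to 4 different probes of 60 bases, and the sequences show how separate those readings are. The last 30 bases of the probes on which the receptor and *Abat* results rest are given from the sequences in the authors' deposited results. They are printed in lower case, with AATAAA in capitals. AATAAA is the canonical polyadenylation signal, and it was searched on the written strand only.

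*Gabbr2* A_55_P2081273: aaacttgcaaaaacaaatcaaactctagac
*Gabbr1* A_52_P16232: ggttttcttttctttgttgtcattattatt
*Gabbr1* A_65_P12677: ctttaacaatcttgatcattccttgaggga
*Gabbr1* A_51_P464900: accgtgaattggaaaagatcatcgccgagg
*Abat* A_55_P2015495: atgtttcctgtgttaatcagtattcttaaa
*Abat* A_66_P104630: cagtccgagggtggagacaaccatgcatca
*Abat* A_55_P2714404: gtggctgtgcagttaagagctctggctgct
*Abat* A_55_P2090577: ttcaacaaaccctgactgtggctAATAAAa

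The 3 *Gad1* probes that could be tested are shown because their differences between the groups did not share a sign.

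*Gad1* A_52_P144310: tgtgtactgtctggaaaagaattctgatac
*Gad1* A_55_P2731481: agtgctaccactttgaacttctttaaaaaa
*Gad1* A_55_P2879270: caacatcgcctatctcaaaaataatttaaa

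The longest run of bases that 2 probes of one gene shared was 9, so no pair of probes read the same stretch of transcript. AATAAA was found in 2 of the 21 probes, and in 9.77% of all probes on the array. The share of G and C ran from 28.3% to 58.3% over the 21 probes, with a median of 38.3% against 41.7% for all probes.

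Values are normalized log2 signals, the log2 of the background-corrected spot intensity minus the 75th percentile of its own array, so that 0 is the signal of the probe at that percentile. Probes were tested when they stood well above background on 4 or more of the 8 arrays, and a probe was called when limma gave an adjusted p under 0.05 over all 35363 probes tested together with a fold change over 1.5. Of the 21 probes, 14 passed that filter, and they read 6 of the 9 genes. *Ucp2*, the transgene, lay between 6.99 and 7.71 on the βUCP2Tg arrays and between 0.92 and 1.46 on the WT arrays on probe A_51_P297105, as the labels require. Its other probe, A_52_P90265, differed by 0.44 on the log2 scale, or 1.36-fold, which missed the threshold (adjusted p = 0.0987, limma). The unscaled 75th percentile was higher on every βUCP2Tg array (9.0 to 9.16) than on any WT array (8.78 to 8.89), and the genotypes occupied different rows of the slide, so slide row and genotype cannot be told apart. A pair of arrays stood apart: the number of probes called was 145 with all arrays, 1467 without βUCP2Tg replicate 4 and 3759 without WT replicate 1, and between 8 and 25 without any other single array. Markers of exocrine acinar cells varied in both groups, and the mean signal of all 12 acinar genes ran from -0.70 to 3.62 in βUCP2Tg and from -0.28 to 4.33 in WT. All 10 β-cell markers passed the filter in these islets, with *Ins2* at 9.15 ± 0.17 in βUCP2Tg and 9.33 ± 0.04 in WT (SD, n = 4 each) and *Ins1* at means of 8.50 and 8.66. No gene of the β-cell, acinar or other marker lists was called, and the median log2 fold change was -0.08 for β-cell, -1.81 for acinar, -0.08 for duct, 0.23 for endothelial, -0.26 for macrophage, -0.20 for neuron and Schwann cell and 0.33 for stellate cell markers.

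None of the 6 measured GABA genes was called between βUCP2Tg and WT islets. The background share was 0.41% of all probes tested, or 145 of 35363, with 0.206% called higher and 0.204% called lower. The methods' t-test, after adjustment, called none of the 6 genes either. At an unadjusted p under 0.05, 1 of the 14 probes passed, against 25.2% of all probes tested (15.2% lower and 9.99% higher in βUCP2Tg). It was also the one tested probe of the set whose groups did not overlap, which held for 12.4% of all probes tested (7.17% lower and 5.25% higher in βUCP2Tg). Among the 14 probes, 8 had a lower mean in βUCP2Tg and 6 a higher one, with a median log2 fold change of -0.08 beside -0.02 over all probes. The probe that stood apart was that of *Gabbr2*.

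**Figure D1:**
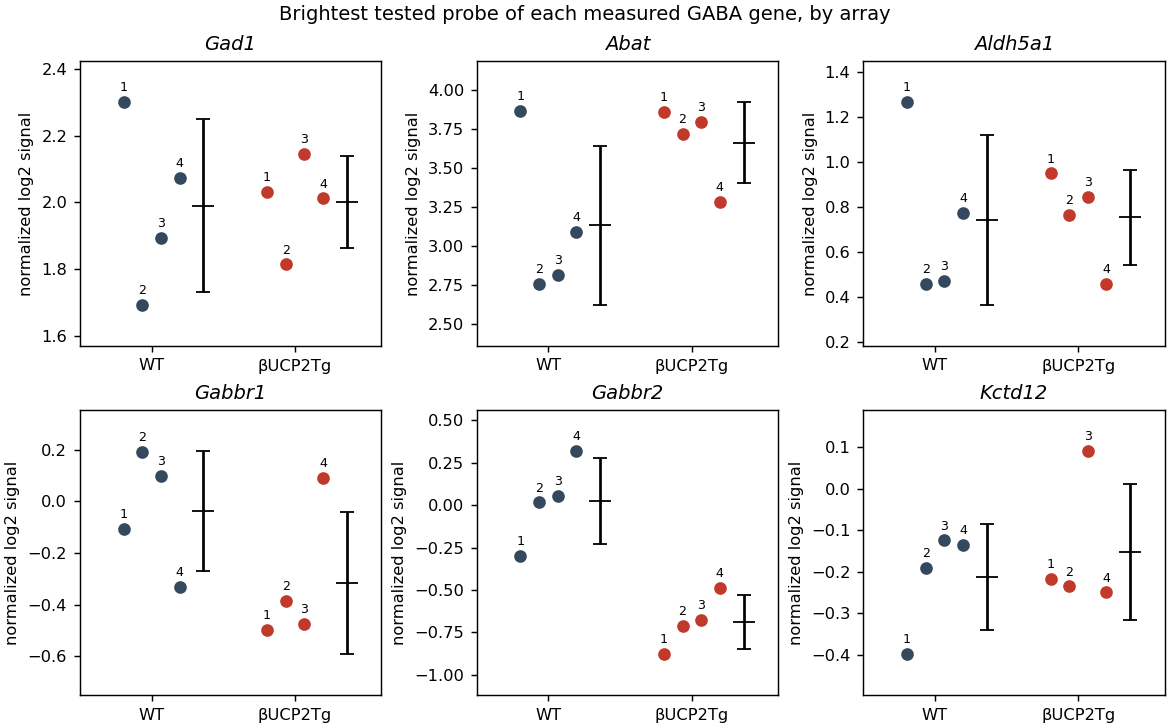
Normalized log2 signal (y axis, a separate range in each panel) of the probe with the highest mean of each of the 6 measured genes, on the 4 WT and 4 βUCP2Tg arrays, with replicate numbers above the points and the mean ± SD beside them. The groups separate in the *Gabbr2* panel, where βUCP2Tg lay between -0.88 and -0.49 and WT between -0.30 and 0.32, and overlap in the other panels.

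*Gabbr2* encodes the receptor subunit that carries the pair to the surface and couples to G proteins. Its signal was -0.88, -0.71, -0.68 and -0.49 on βUCP2Tg arrays 1 to 4 and -0.30, 0.02, 0.05 and 0.32 on WT arrays 1 to 4. Every βUCP2Tg array lay below every WT array, and the nearest arrays, βUCP2Tg replicate 4 and WT replicate 1, were 0.19 apart. The means were -0.69 ± 0.16 and 0.02 ± 0.25 (SD, n = 4 each), a log2 fold change of -0.71 with a standard error of 0.15 and a 95% interval of -1.05 to -0.37, or 1.64-fold lower in βUCP2Tg. The adjusted p from limma was 0.0702, so *Gabbr2* was not called with all 8 arrays. An exact two-sided permutation test of its values gave p = 0.0286, the smallest p that 4 against 4 arrays allow. Any probe whose groups do not overlap gets that p, so it adds nothing to the lack of overlap. The groups did not overlap for 12.4% of all probes tested. The acinar list mean overlapped between the groups, with a median log2 fold change of -1.81, and its part in the *Gabbr2* value was not tested. In whole islets, fewer cells of a type and less RNA per cell cannot be told apart.

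The *Gabbr2* difference crossed the threshold when either of the arrays that stood apart was removed. Without βUCP2Tg replicate 4 the log2 fold change was -0.78 (adjusted p = 0.0411, limma), where 4.18% of all probes tested were called. Without WT replicate 1 it was -0.82 (adjusted p = 0.0156, limma), where 10.8% were called. Without both it was -0.89 (adjusted p = 0.00603, limma), where 16% of all probes were called. Removing any other single array left *Gabbr2* lower by 0.61 to 0.71 on the log2 scale with adjusted p between 0.103 and 0.226. The call also changed with the processing of all 8 arrays. With normexp background correction *Gabbr2* was called at -0.66 (adjusted p = 0.0240, limma), where 2.31% of all probes were called, and with an intensity trend in limma at -0.71 (adjusted p = 0.0496), where 1.07% were. Its direction was the same in every fit, while its call depended on the arrays, the background correction and the variance model.

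*Gabbr1* encodes the subunit that binds GABA. Its probe with the highest mean, A_52_P16232, read -0.50, -0.39, -0.48 and 0.09 in βUCP2Tg and -0.11, 0.19, 0.10 and -0.33 in WT. The groups overlapped, because βUCP2Tg replicate 4 lay above WT replicates 1 and 4. The log2 fold change was -0.28 with a standard error of 0.17 and a 95% interval of -0.67 to 0.11 (adjusted p = 0.330, limma). The other tested probes of *Gabbr1* also had lower means in βUCP2Tg. Probe A_65_P12677 differed by -0.19 (adjusted p = 0.36, limma). Probe A_51_P464900 differed by -0.43 (adjusted p = 0.236, limma), with βUCP2Tg between -3.54 and -3.22 and WT between -3.39 and -2.45. All 3 tested probes of *Gabbr1* thus pointed one way without passing the test. The remaining probe, A_55_P2719029, was well above background on no array, and its readings of -7.71 to -7.27 in βUCP2Tg and -7.05 to -5.84 in WT carry no fold change. Whether the difference of *Gabbr2* exceeded that of *Gabbr1* was not tested.

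**Figure D2:**
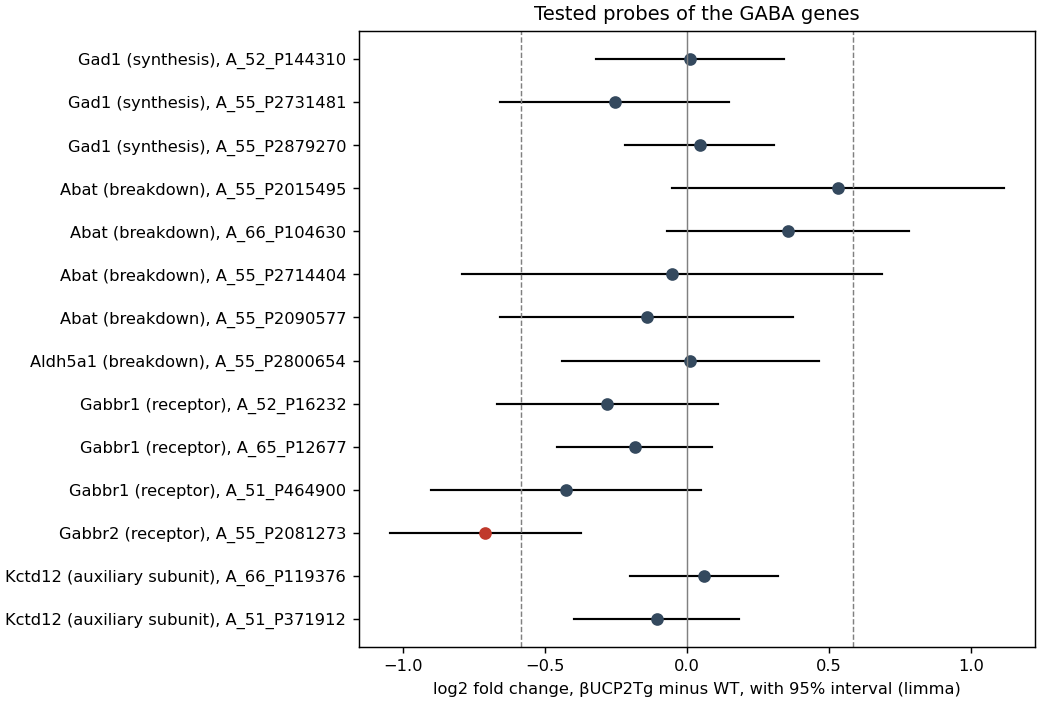
Log2 fold change, βUCP2Tg minus WT (x axis), with its 95% interval from limma for each of the 14 tested probes, ordered by role. The solid line marks no difference, the dashed lines mark a fold change of 1.5 in either direction, and the *Gabbr2* probe, drawn in red, is the one whose interval leaves out 0.

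Of the auxiliary subunits, *Kctd12* was measured and *Kctd16* was not. KCTD12 is the subunit known for fast desensitization of the GABA-B response. On probe A_66_P119376 *Kctd12* read -0.22, -0.24, 0.09 and -0.25 in βUCP2Tg and -0.40, -0.19, -0.12 and -0.14 in WT. The groups overlapped through βUCP2Tg replicate 3, the highest array, and WT replicate 1, the lowest. The other βUCP2Tg arrays lay below the other WT arrays. The log2 fold change was 0.06, with a 95% interval of -0.20 to 0.32 (adjusted p = 0.773, limma). The other *Kctd12* probe, A_51_P371912, differed by -0.11 (adjusted p = 0.628, limma), with a lower mean in βUCP2Tg, so the probes differed in sign with both intervals spanning 0. *Kctd16* was well above background on 1 βUCP2Tg array and no WT array. Its readings ran from -7.20 to -5.07 in βUCP2Tg and from -7.99 to -6.22 in WT, and no fold is given for them.

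Among the related auxiliary subunit genes outside the 9, *Kctd8* was called and *Kctd12b* was not. Its probe A_51_P448178 read 0.31, 0.15, 0.34 and -0.02 in βUCP2Tg and -2.28, -3.06, -2.74 and -2.70 in WT. Every βUCP2Tg array was above every WT array, with a log2 fold change of 2.89 and a standard error of 0.17, or 7.41-fold (adjusted p = 0.000970, limma). With normexp its log2 fold change was 2.14 (adjusted p = 8.41e-05, limma). Its other probe, A_55_P2134536, was called as well, at a log2 fold change of 2.73 (adjusted p = 0.0467, limma), and was well above background on 3 of the 4 WT arrays. Probe A_51_P448178 was called in each fit that left out one array. *Kctd12b* read 1.48, 1.56, 1.48 and 0.92 in βUCP2Tg and 1.40, -1.30, -0.32 and 0.72 in WT. WT replicate 1 lay among the βUCP2Tg arrays and the groups overlapped. The log2 fold change of *Kctd12b* was 1.24 (adjusted p = 0.190, limma). *Kctd12b* was called without WT replicate 1, at 1.66 (adjusted p = 0.0423, limma), where 10.8% of all probes tested were called. Without that array and βUCP2Tg replicate 4 it was called at 1.81 (adjusted p = 0.0367, limma), where 16% were called. Without WT replicate 2 its log2 fold change was 0.76 (adjusted p = 0.325, limma). Whether the difference of *Kctd8* exceeded that of *Kctd12* was not tested.

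For synthesis, *Gad1* was measured and *Gad2* was not. *Gad1* encodes the cytosolic glutamate decarboxylase, known as the main form in mouse islets. Probe A_52_P144310 read 2.03, 1.81, 2.15 and 2.01 in βUCP2Tg and 2.30, 1.69, 1.89 and 2.07 in WT. All 4 βUCP2Tg values fell inside the WT range, which WT replicates 1 and 2 spanned. The means were 2.0 ± 0.14 and 1.99 ± 0.26 (SD, n = 4 each), a log2 fold change of 0.01 with a 95% interval of -0.32 to 0.34 (adjusted p = 0.972, limma). The interval thus leaves room for a difference of up to 0.34 on the log2 scale.

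The other tested *Gad1* probes did not pass the test in either direction. Probe A_55_P2731481 read -1.53, -2.05, -2.08 and -1.55 in βUCP2Tg and -1.22, -1.64, -1.63 and -1.69 in WT, a log2 fold change of -0.26 (adjusted p = 0.389, limma). βUCP2Tg replicates 2 and 3 lay below every WT array on it, while βUCP2Tg replicates 1 and 4 lay within the WT range. Probe A_55_P2879270 differed by 0.04 (adjusted p = 0.837, limma), with βUCP2Tg between -3.17 and -2.74 and WT between -3.10 and -2.88. The fourth probe, A_52_P663538, was well above background on no array.

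*Gad2* encodes the membrane-associated glutamate decarboxylase, a known autoantigen of type 1 diabetes. None of its 3 probes was well above background on any of the 8 arrays. Probe A_51_P495462 read -6.62, -7.65, -7.60 and -7.80 in βUCP2Tg and -6.36, -6.46, -6.61 and -5.98 in WT. Those readings did not overlap, with a gap of 0.0085 between βUCP2Tg replicate 1 and WT replicate 3, but none was well above background in either group and no fold is given. Probes A_55_P2735205 and A_55_P2734537 overlapped between the groups, the first between -7.98 and -7.46 and the second between -8.38 and -7.71 over all arrays. *Slc32a1* encodes the vesicular GABA transporter and was well above background on 1 WT array and no βUCP2Tg array. It ran from -6.37 to -5.43 in βUCP2Tg and from -6.89 to -5.28 in WT, and the groups overlapped.

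*Abat*, the transaminase that starts GABA breakdown, had a higher mean in βUCP2Tg on its probe with the highest signal without passing the test. Probe A_55_P2015495 read 3.86, 3.72, 3.79 and 3.28 in βUCP2Tg and 3.87, 2.75, 2.81 and 3.08 in WT. WT replicate 1 read as high as the highest βUCP2Tg array, while the other 3 WT arrays lay below all βUCP2Tg arrays. The means were 3.66 ± 0.26 and 3.13 ± 0.51 (SD, n = 4 each). The log2 fold change was 0.53 with a standard error of 0.25 and a 95% interval of -0.05 to 1.12 (adjusted p = 0.231, limma). An exact two-sided permutation test gave p = 0.143.

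The *Abat* difference turned on WT replicate 1. Without that array it was 0.78 (adjusted p = 0.0268, limma) and passed both limits, in a fit that called 10.8% of all probes. Without βUCP2Tg replicate 4 it was 0.66 (adjusted p = 0.154, limma). Without both arrays it was 0.90 (adjusted p = 0.00533, limma), and probe A_66_P104630 of *Abat* was called too, at 0.62 (adjusted p = 0.0137, limma), in a fit that called 16% of all probes. Removing any other single array gave 0.41 to 0.52, with no call. With all arrays, A_66_P104630 differed by 0.36 (adjusted p = 0.265, limma), and by 0.03 with normexp (adjusted p = 0.843, limma).

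The dim probes of *Abat* did not share that direction. Probe A_55_P2714404, well above background on 4 βUCP2Tg and 3 WT arrays, differed by -0.05 (adjusted p = 0.936, limma). Probe A_55_P2090577, whose sequence holds AATAAA and which was well above background on 2 arrays of each group, differed by -0.14 (adjusted p = 0.723, limma). *Aldh5a1* encodes the dehydrogenase of the next step and read 0.95, 0.76, 0.84 and 0.46 in βUCP2Tg and 1.27, 0.46, 0.47 and 0.77 in WT. WT replicate 1 was the highest array, and the rest of the groups overlapped. The log2 fold change of *Aldh5a1* was 0.01 with a 95% interval of -0.44 to 0.46 (adjusted p = 0.979, limma).

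**Figure D3:**
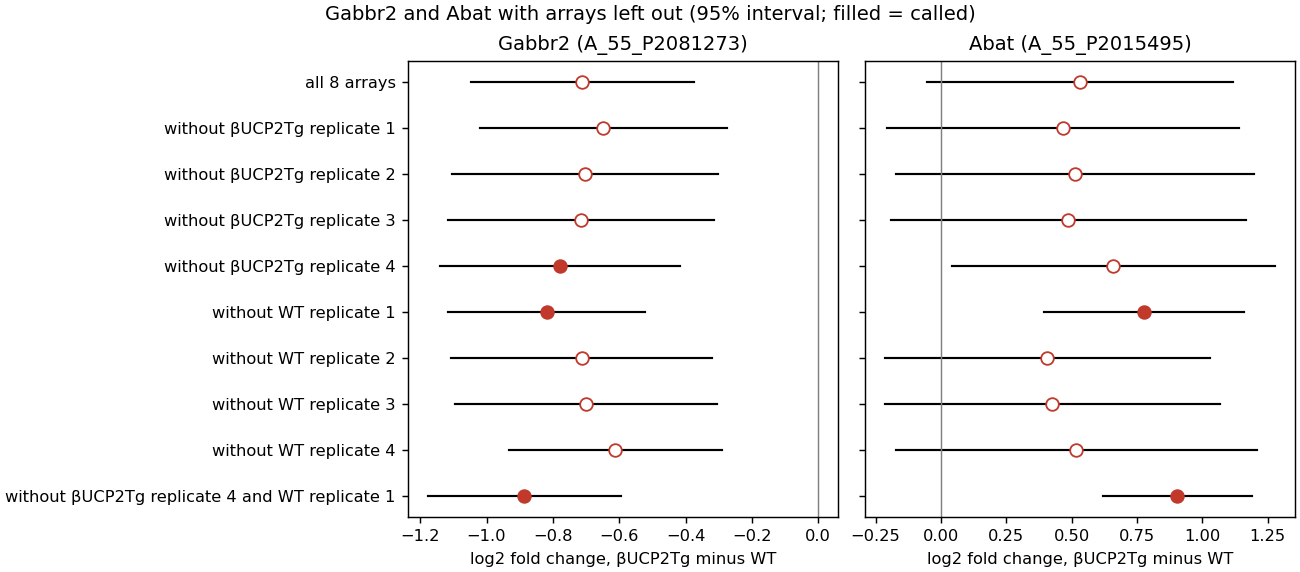
Log2 fold change, βUCP2Tg minus WT (x axis), with its 95% interval for *Gabbr2* and *Abat* with all 8 arrays, without each array in turn, and without both arrays that stood apart; filled points were called. *Gabbr2* was lower in every fit and called in 3 of them. *Abat*, on its probe with the highest mean, was higher in every fit and called in 2.

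WT replicate 1 had the highest WT reading on the *Gad1*, *Abat* and *Aldh5a1* probes with the highest means and the lowest WT reading on those of *Gabbr2* and *Kctd12*. βUCP2Tg replicate 4 had the lowest βUCP2Tg reading for *Abat*, *Aldh5a1* and *Kctd12* and the highest for *Gabbr1* and *Gabbr2*. The acinar list mean was 3.62 in βUCP2Tg replicate 4 against -0.70 to 0.93 on the other βUCP2Tg arrays, while that of WT replicate 1, 2.76, lay within the range of the other WT arrays. WT replicate 1 had the lowest WT list mean of duct markers, -0.82 against -0.08 to -0.07, and of stellate cell and fibroblast markers, -2.45 against -1.49 to -0.96. The part of these markers in the *Abat* and *Gabbr2* values was not tested. Markers of α, δ and PP cells had list means of 4.98 to 5.12 in βUCP2Tg and 4.62 to 4.91 in WT, which did not overlap, although none of the 9 genes was called. Of these, 3 were higher on every βUCP2Tg array than on any WT array, among them *Pyy* (0.78) and *Hhex* (0.43), where 13.1% of all genes tested did not overlap in either direction, while the log2 fold changes of *Gcg*, *Ppy* and *Sst* were 0.04, 0.27 and -0.04. The part of these cells in the GABA gene values was not tested.

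The wider GABA pathway was read from lists of related genes, with each gene taken from its tested probe of highest mean. Over all 17860 genes tested, 58 were called higher and 58 lower, and the median log2 fold change of those probes was 0.03. GABA carriers and channels across the plasma membrane had 8 of 11 genes tested, with none called and a range of -0.20 to 0.18. *Slc6a6*, a taurine transporter that can also carry GABA, had the smallest p of that list, at 0.18 (adjusted p = 0.327, limma). Subunits of volume-regulated anion channels came next, *Lrrc8d* at -0.13 (adjusted p = 0.520, limma) and *Lrrc8e* at -0.20 (adjusted p = 0.574, limma). *Slc6a11*, *Slc6a12* and *Slc6a13*, which encode GABA transporters, were not tested because they were dim.

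GABA-A receptors are the chloride channels opened by GABA, and 10 of their 19 subunit genes were tested. *Gabra2* was called lower, and no subunit was called higher. Its signal was -4.52, -4.79, -4.35 and -4.23 in βUCP2Tg and -3.28, -3.48, -3.10 and -3.46 in WT, so the groups did not overlap. Its log2 fold change was -1.14 (adjusted p = 0.0364, limma), or 2.20-fold lower. The call was lost without any one of βUCP2Tg replicates 1, 2 and 3 and WT replicates 2, 3 and 4 (-1.19 to -1.03, adjusted p = 0.0806 to 0.13, limma). With normexp background correction the value was -0.55 (adjusted p = 0.0154, limma), and the call was lost on the limit of 1.5-fold alone. *Gabrd* (0.84, adjusted p = 0.0902) and *Gabra4* (0.82, adjusted p = 0.196) had higher means in βUCP2Tg without passing limma's test. Without WT replicate 1 *Gabra4* was called (1.10, adjusted p = 0.0480, limma), in a fit that called 10.8% of all probes. *Gabra4* was 0.54 without βUCP2Tg replicate 1 (adjusted p = 0.371, limma). With normexp *Gabra4* was 0.32 and *Gabrd* 0.24 (adjusted p = 0.286 and 0.131, limma). The list median was 0.16. Of the 10 genes for scaffolding and trafficking of these receptors all were tested and none was called, with a median of -0.05. *Trak1* (-0.47, adjusted p = 0.128), *Ubqln1* (-0.29, adjusted p = 0.147) and *Gabarapl1* (0.31, adjusted p = 0.241) had its smallest p values by limma.

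Partners and effectors of the GABA-B receptor had 20 of 23 genes tested, 1 called higher and 0 lower, with a median of -0.05. The called gene was *Kctd8*. *Kcnj5*, a subunit of the potassium channel that GABA-B receptors open, read -2.85, -2.96, -3.45 and -3.26 in βUCP2Tg and -6.46, -8.07, -5.39 and -5.26 in WT. The groups did not overlap, and the log2 fold change was 3.17 (adjusted p = 0.0570, limma), but the probe was well above background on 2 of the 4 WT arrays, so the size rests partly on readings not well above background. With normexp correction it was 0.64 (adjusted p = 0.0259, limma) and was called. *Rgs2*, which speeds the turn-off of G proteins, differed by -0.85 on the log2 scale (adjusted p = 0.0635, limma). *Gnai3*, an inhibitory G protein subunit, differed by -0.49 (adjusted p = 0.0927, limma), and in both genes the βUCP2Tg arrays lay below the WT arrays. *Rgs2* was called with normexp (-0.82, adjusted p = 0.0291), without βUCP2Tg replicate 4 (-0.98, adjusted p = 0.0220) and without WT replicate 1 (-0.94, adjusted p = 0.0185), each by limma. *Kcnj5* was likewise called without either of those arrays (3.21, adjusted p = 0.0425, and 3.11, adjusted p = 0.0262). The share of all probes called was 2.31% with normexp, 4.18% without βUCP2Tg replicate 4 and 10.8% without WT replicate 1. Of the other potassium channel subunits listed, *Kcnj6* was tested and not called, and *Kcnj3* and *Kcnj9* were dim and not tested.

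Genes for the supply of glutamate and for the later GABA shunt had 20 of 22 tested, none called, and a median of -0.08. *Gls2*, one of the glutaminases that make glutamate from glutamine, differed by -1.31 on the log2 scale (adjusted p = 0.107, limma). *Suclg2*, a subunit of succinyl-CoA ligase, differed by 0.24 (adjusted p = 0.153, limma). Neither passed the test with all arrays. *Gls2* was called with normexp (-1.04, adjusted p = 0.0432), without βUCP2Tg replicate 4 (-1.60, adjusted p = 0.0457) and without WT replicate 1 (-1.57, adjusted p = 0.0315), each by limma. In that order, those fits called 2.31%, 4.18% and 10.8% of all probes.

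**Figure D4:**
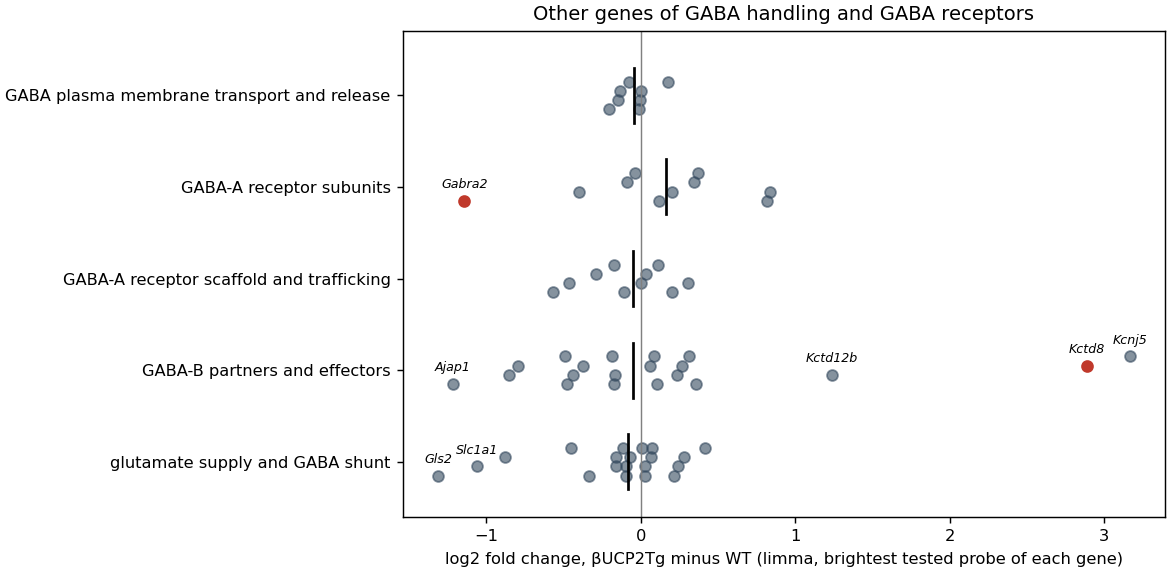
Log2 fold change, βUCP2Tg minus WT (x axis), of each tested gene in 5 lists of related GABA genes; the black bar is the list median, red points were called, and names mark genes beyond 1 on the log2 scale. The medians lie between -0.08 and 0.16, and the called genes are *Kctd8* at 2.89 and *Gabra2* at -1.14.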

How the data were processed

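RNA from islets of 4 βUCP2Tg and 4 WT samples was measured on single-colour (Cy3) Agilent mouse arrays. Scans were processed by the authors with Feature Extraction (version 10.7.3.1 per the file headers, 9.1 in the submitters' processing notes), and the deposited scanner files give a background-subtracted intensity per spot with no scaling between arrays. The authors' deposited results hold normalized log2 values from GeneSpring, which equal log2 of that intensity minus a constant for each array for 100% of probes within 0.001. They also hold the authors' fold change and p-values, which were not used.

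Control and outlier spots (48 to 106 per array) were left out, no spot was saturated, and log2 intensities were reduced by the 75th percentile of each array and averaged per probe. A probe counted as measured where at least 50% of its spots were well above background, and 33191 to 36320 probes were measured per array. Arrays carry no read depth, so their number limits the precision. Groups were compared with lmFit and eBayes of limma 3.58.1 under R 4.3.3. Adjustment was by Benjamini-Hochberg across all 35363 probes tested. A gene was represented by its tested probe of highest mean. Single values were compared with exact two-sided permutation tests. The R package data.table (version 1.17.8) and, for plots, Python 3.11.15 with matplotlib 3.10.9 were also used.

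All 9 genes and all their probes are reported. From each pathway list the called genes and the 3 others with the smallest p are named, and from marker lists those of highest mean. *Ucp2* is named as a check of the labels and *Kctd8* as a further GABA-B auxiliary subunit. *Kctd12b*, *Pyy*, *Hhex* and *Sst* were named after their values were seen. Some genes that this rule would name are not reported here. The genes and lists were chosen with earlier results of these data known. *Marchf1* matched no symbol on the array. Replicate numbers were not used to pair the samples, except in the replicate block below. Alternatives covered the filter, scaling, background correction, deposited values, a signal floor, outlier spots, the test, the replicate block and leaving out arrays. Slide row could not be fitted, since each row held 1 genotype.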

Additional observations from a re-analysis of the deposited data

Results flagged for a closer look

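The 14 tested probes gave 28 sets of 4 readings, one for each genotype. In 2 of them a single array was isolated by Dixon's ratio, the distance from an extreme reading to its neighbour as a share of the whole spread, at the 95% level. Chance alone would isolate about 1 set in 20, which is 1.4 sets here. On *Gad1* probe A_55_P2731481, WT replicate 1 read -1.22 against -1.69 to -1.63 on the other WT arrays (ratio 0.882). On *Kctd12* probe A_66_P119376, βUCP2Tg replicate 3 read 0.0912 against -0.25 to -0.22 on the other βUCP2Tg arrays (ratio 0.901).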

How the results depend on the processing

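The number of probes called over the whole array, 145, moved to 21 with no filter on dim probes, 38 with the filter at 1 array, 237 at all 8 arrays, 816 with normexp, 248 with a floor at a signal of 5, 26 with the methods' t-test after adjustment, 379 with an intensity trend in limma, and 14 with the replicate block. It ranged from 8 to 3759 with one array left out and was 5486 with both βUCP2Tg replicate 4 and WT replicate 1 left out, a setting chosen after seeing the data. The causes were not tested. The GABA genes called moved from 0 to 1 with normexp and to 1 with the trend, in both cases *Gabbr2* (-0.66, adjusted p = 0.0240, and -0.71, adjusted p = 0.0496, limma). The number called ranged from 0 to 2 with one array left out and was 2 with both left out. Those were *Gabbr2* and *Abat*. Over the settings other than a single left-out array, the adjusted p of *Gabbr2* ran from 0.00603 to 0.140, and that of *Abat* from 0.00533 to 0.357.

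The sign of *Aldh5a1* turned with normexp (-0.0645), and single left-out arrays moved it between -0.0838 and 0.186. *Gad1* moved between -0.0889 and 0.115 and *Kctd12* between -0.0214 and 0.0922 with one array left out, and these signs are not settled. *Gabbr1*, *Gabbr2* and *Abat* kept their direction in every setting run on their probes with the highest means. The dim *Abat* probes changed sign. A_55_P2714404 moved from -0.05 to 0.18 without WT replicate 1, and A_55_P2090577 from -0.14 to 0.07 without βUCP2Tg replicate 3. Normexp moved the median of all probes to -0.09. The deviations of samples with the same replicate number had r = 0.44, -0.05, -0.01 and -0.24 for numbers 1 to 4. Over all pairs of a βUCP2Tg and a WT array r ran from -0.47 to 0.46. These mixed values do not decide whether samples were collected in pairs, and the numbers are used here as names only. With the replicate block 14 probes and no GABA gene were called, and *Gabbr2* had an adjusted p of 0.137. Signal over background limits *Gad2*, *Kctd16* and *Slc32a1*, which did not pass the filter and were not called with no filter on dim probes.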
